A study of Rattus norvegicus with 8 samples.

Results

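The genes described here are the 13 protein genes of the mitochondrial genome and 82 nuclear genes that serve their expression, 95 of the 28546 gene entries in the count table. They were taken by name: every symbol starting with Mt-, every Mrpl or Mrps symbol followed by a number (45 and 30 genes), and Tfam, Polrmt, Tfb2m, Twnk, Lrpprc, Slirp and Ppargc1a. Twnk stands in the table under its older symbol Peo1. A filter on low counts left 94 of the 95 among 14445 genes tested. The gene left out, Mrpl53, was listed at 0 in all 8 libraries.

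RNA-seq was made from cultured astrocytes of Sprague Dawley rat pups that had met 12-273 BM melanoma cells or their medium for 24 h. For the sh-APP libraries (n = 3) those melanoma cells expressed a short hairpin RNA that targets APP, the precursor of amyloid beta. For the anti-Abeta libraries (n = 3) they expressed a scrambled hairpin, and the cultures received an anti-amyloid beta antibody. For the control libraries (n = 2) they expressed the scrambled hairpin, and the titles and column names give no antibody. Column names of the control and sh-APP libraries say control where those of anti-Abeta name the antibody. What that control held cannot be told from these names. All 3 groups therefore share the exposure to melanoma, and no group without it was analysed here. The labels name the exposure as a co-culture, as melanoma-conditioned medium and as astrocyte medium put on melanoma cells, and which of these held cannot be told from them. They name 1 hairpin, and do not say whether replicates came from separate cultures or animals, so p-values measure the spread between these libraries, which may be technical.

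The mitochondrial genome encodes 13 subunits of the respiratory chain and ATP synthase, and also the ribosomal and transfer RNAs with which they are made. The proteins that copy, transcribe and translate it come from nuclear genes. Polrmt is the mitochondrial RNA polymerase, Tfam packages the DNA and starts transcription with Tfb2m, and Twnk is the helicase of replication. The long transcripts are cut into shorter RNAs, and Lrpprc and Slirp form a complex that keeps many of the messenger RNAs stable. The messenger RNAs are translated by the mitochondrial ribosome, whose large (Mrpl) and small (Mrps) subunit proteins are imported. Ppargc1a (PGC-1alpha) is a coactivator of the nuclear genes of this programme.

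Total counts were 41304519 to 44743406 in the sh-APP libraries, 34250464 to 47831595 in the anti-Abeta libraries and 39951265 and 40113512 in the control libraries. Levels are given as CPM, which is counts scaled to a common library size by the trimmed mean of M values, for which the library factors were 1.04 to 1.06 in sh-APP, 0.99 to 1.03 in anti-Abeta and 0.90 and 0.92 in control. Of 12 astrocyte markers 11 were well detected, with summed levels of 18626 to 21575 CPM in sh-APP, 14928 to 16259 CPM in anti-Abeta and 16848 to 17426 CPM in control, and Gjb6 was near 0 throughout. Changes are log2 fold changes ± SE from edgeR's quasi-likelihood test in a single fit of the 8 libraries, called at a Benjamini-Hochberg adjusted p under 0.05 over all 14445 genes. Much of the transcriptome was called: 53.7% of genes in sh-APP against control, 29.2% in anti-Abeta against control and 26.1% in sh-APP against anti-Abeta. Of the 12 astrocyte markers, 8 were called higher and 1 lower in sh-APP against control (75%), and 4 higher and 3 lower in anti-Abeta against control (58.3%). Their sum hides opposite changes. Gfap had 5513 to 7180 CPM in sh-APP and 2924 and 2897 CPM in control, and Gja1 had 1979 to 2297 CPM and 3511 and 3853 CPM.

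The promoters of 4 nuclear members show the kinds of sequence that lie before these genes, and were chosen because 3 of the genes act at the start of mitochondrial transcription and Mrpl32 had the largest decrease among the ribosomal genes. Each is the 250 bases before the gene's start in RefSeq (build GRCr8), and capitals mark matches to the letters GCANGCGC, a core of sites for the factor NRF1, or CCGGAAGT, a core of sites for ETS factors such as GABP. Tfam (chr20:17355123-17355372, plus strand) has an ETS match 56 to 49 bases before the start. Tfb2m (chr13:93828595-93828844, minus strand) has an NRF1 match 45 to 38 bases before it. Polrmt (chr7:10609946-10610195, plus strand) has neither in this window. Mrpl32 (chr17:55260401-55260650, plus strand) has 3 NRF1 matches, at 62 to 55, 60 to 53 and 43 to 36 bases, the first pair of which overlap.
Tfam: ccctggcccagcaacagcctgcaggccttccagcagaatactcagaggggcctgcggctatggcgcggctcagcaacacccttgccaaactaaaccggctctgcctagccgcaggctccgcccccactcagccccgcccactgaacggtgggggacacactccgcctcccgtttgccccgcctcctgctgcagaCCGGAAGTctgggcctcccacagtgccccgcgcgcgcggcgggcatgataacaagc
Tfb2m: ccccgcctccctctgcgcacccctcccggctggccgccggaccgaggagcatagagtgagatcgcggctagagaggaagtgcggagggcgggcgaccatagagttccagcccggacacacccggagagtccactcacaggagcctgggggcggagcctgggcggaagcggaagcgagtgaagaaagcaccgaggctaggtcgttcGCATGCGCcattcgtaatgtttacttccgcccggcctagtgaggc
Polrmt: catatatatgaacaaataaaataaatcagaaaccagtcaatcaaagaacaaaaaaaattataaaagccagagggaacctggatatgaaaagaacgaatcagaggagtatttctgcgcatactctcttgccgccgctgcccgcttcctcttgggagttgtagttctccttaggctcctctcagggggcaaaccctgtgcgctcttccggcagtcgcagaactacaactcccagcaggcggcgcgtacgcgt
Mrpl32: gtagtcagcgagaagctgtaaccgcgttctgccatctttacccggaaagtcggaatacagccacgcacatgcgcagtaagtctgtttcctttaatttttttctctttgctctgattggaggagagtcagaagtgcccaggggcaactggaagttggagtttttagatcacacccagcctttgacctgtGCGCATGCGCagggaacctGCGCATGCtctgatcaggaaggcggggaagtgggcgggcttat

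Over both strands, GCANGCGC was found before 15 of the 66 nuclear members with a promoter in the table (22.7%) and before 8.55% of all 27457 promoters. It was found before 1 of 21 members that were higher in sh-APP than in control (4.76%), 4 of 18 that were lower (22.2%) and 10 of 27 that were not called. Those 27 include Mrpl53, which was not tested. CCGGAAGT was found before 6 of the 66 members (9.09%) and 3.29% of all promoters. The letters were picked after the sequences had been read, and the median GC content was 54.6% before the members and 52.0% over all promoters. These matches describe letters, not bound sites.

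Transcripts of the mitochondrial genome took a smaller part of the RNA in both arms than in control. They held 2.37%, 2.5% and 1.96% of all counts in the sh-APP libraries, 3.62%, 3.34% and 3.0% in the anti-Abeta libraries, and 6.21% and 5.04% in the control libraries. The 3 groups did not overlap, and the anti-Abeta libraries lay between the other 2 groups. The library numbers in the labels form a block per group, lowest for control and highest for sh-APP, with a gap after the control block. Group and library number thus change together. Within groups the share also fell as the number rose, except from sh-APP replicate 1 to sh-APP replicate 2. An effect of library number was not tested. The mean share was 2.28% ± 0.280 in sh-APP (SD, n = 3), 3.32% ± 0.310 in anti-Abeta (SD, n = 3) and 5.63% ± 0.828 in control (SD, n = 2), which is 0.405 of the control share in sh-APP and 0.591 in anti-Abeta. In bulk RNA, fewer cells of a type and less RNA per cell cannot be told apart.

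The nuclear members did not follow this decrease as a set, which a ratio free of library scaling shows. The log2 ratio of Mt- counts to the counts of the nuclear members was 2.38, 2.41 and 2.17 in sh-APP, 3.06, 3.03 and 2.76 in anti-Abeta, and 3.95 and 3.67 in control. Its mean differed from control by -1.49 in sh-APP and by -0.86 in anti-Abeta, and sh-APP differed from anti-Abeta by -0.63, with no overlap in any of the 3 pairs. Leaving out 1 library at a time gave -1.63 to -1.34 in sh-APP against control, -1.0 to -0.72 in anti-Abeta against control and -0.72 to -0.55 between the arms. With the counts of all other tested genes in place of the nuclear members, the 3 differences were -1.35, -0.79 and -0.56. The lower ratio is thus not particular to the nuclear members.

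**Figure D1:**
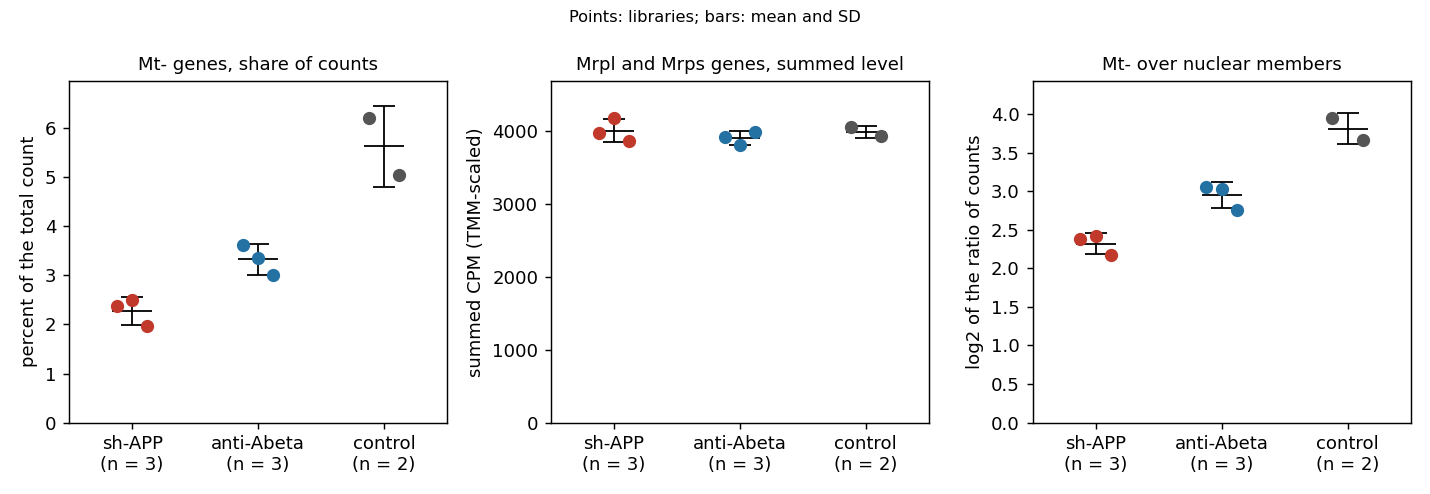
Share of all counts on the 13 Mt- genes in percent, summed CPM of the ribosomal genes, and log2 ratio of Mt- to nuclear member counts, 1 point per library with mean and SD (sh-APP n = 3, anti-Abeta n = 3, control n = 2). The Mt- share lies at 1.96% to 2.5% in sh-APP, 3.0% to 3.62% in anti-Abeta and 5.04% to 6.21% in control, while the summed ribosomal levels of the groups overlap.

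In sh-APP against control, all 13 Mt- genes were lower, by 2.27-fold to 4.05-fold (median log2 fold change -1.53), with adjusted p from 4.08e-06 to 3.75e-05. Over all tested genes 27.9% were called lower, 9.20% were called lower by more than 2-fold, and the median log2 fold change was 0.03. In anti-Abeta against control all 13 were also lower, by 1.76-fold to 2.02-fold (median -0.86, adjusted p 0.00226 to 0.00534), against 16.6% of all tested genes. Sh-APP was below anti-Abeta for 12 of the 13 at the threshold (median -0.67), against 16.0% of all genes. Both arms are set against the same 2 control libraries. No Mt- gene had overlapping groups in any of the 3 comparisons. Of all tested genes 35.0% were lower without overlap in sh-APP against control, 27.0% in anti-Abeta against control and 22.1% in sh-APP against anti-Abeta. Control replicate 1 was above control replicate 2 for every Mt- gene, by 0.13 (Mt-atp8) to 0.47 (Mt-cox3) on the log2 scale. Without control replicate 1, which leaves 1 control library, the log2 fold changes of all 13 against control were still negative. They ran from -1.88 to -0.92 in sh-APP and from -0.90 to -0.58 in anti-Abeta. Mt-atp8, Mt-cox3, Mt-cyb and Mt-nd4 then did not pass in anti-Abeta, where calls fell over all tested genes.

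The ATP synthase genes were among the most decreased in sh-APP. Mt-atp6, a membrane subunit of the proton channel, had 4470.0, 4542 and 4235 CPM in sh-APP, 9574, 9107 and 6381 CPM in anti-Abeta, and 18669.8 and 14956 CPM in control. Even its lowest control library stood above every library of the arms. Its log2 fold change was -1.93 ± 0.15 in sh-APP and -1.01 ± 0.15 in anti-Abeta against control, and -0.92 ± 0.13 in sh-APP against anti-Abeta (adjusted p 0.00105). Mt-atp8, a small membrane subunit, had 193, 194 and 167 CPM in sh-APP, 446, 451 and 267 CPM in anti-Abeta, and 732 and 670.2 CPM in control. Anti-Abeta replicate 3 was the low library of its group for both genes. The Mt-atp8 change was -1.92 ± 0.17 in sh-APP against control, -0.85 ± 0.17 in anti-Abeta against control and -1.07 ± 0.16 in sh-APP against anti-Abeta. The reading frames of Mt-atp8 and Mt-atp6 overlap, so how reads were divided between them is uncertain.

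The cytochrome c oxidase genes, which encode the catalytic core of complex IV, differed among themselves in sh-APP. Mt-co1 had 6409, 6870.0 and 5202 CPM in sh-APP, 9009, 8408 and 8118 CPM in anti-Abeta, and 18042 and 14216 CPM in control. Its groups were well apart, with log2 fold changes of -1.39 ± 0.12 in sh-APP and -0.92 ± 0.12 in anti-Abeta against control, and -0.47 ± 0.11 between the arms (adjusted p 0.00941). Mt-co2 had 2821, 3091 and 2498 CPM in sh-APP, 4864, 5231 and 3754 CPM in anti-Abeta, and 9136 and 7784 CPM in control. Its change was -1.59 ± 0.13 in sh-APP and -0.87 ± 0.13 in anti-Abeta against control, and -0.72 ± 0.12 between the arms. Mt-cox3 had 3374, 3665 and 2598 CPM in sh-APP, 4385, 3817 and 4198 CPM in anti-Abeta, and 8453 and 6117 CPM in control. It changed least of the 13 in both arms (-1.18 ± 0.15 and -0.82 ± 0.15), and the difference between the arms did not pass (-0.36 ± 0.13, adjusted p 0.0638). Its 3817 CPM in anti-Abeta replicate 2 lay just above the 3665 CPM of sh-APP replicate 2.

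Mt-cyb, the cytochrome b of complex III, had 1247, 1353 and 964 CPM in sh-APP, 1639.7, 1489 and 1551 CPM in anti-Abeta, and 3171 and 2382 CPM in control. The arms were close to each other and both far below control. Its changes were -1.22 ± 0.14 in sh-APP and -0.83 ± 0.14 in anti-Abeta against control, and -0.39 ± 0.12 in sh-APP against anti-Abeta (adjusted p 0.0358). That last call was lost when any 1 of 5 arm libraries was left out, and the call for Mt-nd1 when any 1 of 3 was (highest adjusted p 0.131 and 0.0871).

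The other 7 genes encode membrane subunits of complex I, which takes electrons from NADH. Mt-nd1 and Mt-nd2, neighbours on the mitochondrial map, had changes in sh-APP of -1.29 ± 0.13 and -1.36 ± 0.13, near that of Mt-cyb. Mt-nd1 had 1930.3, 2175 and 1559.9 CPM in sh-APP, 2681, 2474 and 2475 CPM in anti-Abeta, and 5277 and 3968 CPM in control. Mt-nd3, Mt-nd4 and Mt-nd5 had changes in sh-APP of -1.53 ± 0.12, -1.46 ± 0.16 and -1.62 ± 0.14. The level of Mt-nd4 was low, at 51.1, 61.3 and 41.5 CPM in sh-APP, 92.8, 81.2 and 65.9 CPM in anti-Abeta, and 152 and 130 CPM in control. That is below Mt-nd4l in every library, and how reads were divided between Mt-nd4 and Mt-nd4l was not tested. Mt-nd4l had 66.4, 76.3 and 72.4 CPM in sh-APP, 144, 174 and 113 CPM in anti-Abeta, and 288 and 254 CPM in control, a change of -1.92 ± 0.14 in sh-APP and -0.92 ± 0.14 in anti-Abeta. In anti-Abeta the 7 genes lay close together, from -1.02 (Mt-nd6) to -0.82 (Mt-nd4).

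Mt-nd6 is the 1 protein gene that is read from the light strand in mammals. It had 36.8, 42.4 and 39.9 CPM in sh-APP, 87.3, 92.0 and 59.6 CPM in anti-Abeta, and 175 and 147 CPM in control. It had the largest change of the 13 against control in both arms, -2.02 ± 0.15 in sh-APP (4.05-fold lower) and -1.02 ± 0.15 in anti-Abeta (2.02-fold lower). The sources used here do not say whether the libraries kept strand, and Mt-nd6 lies opposite heavy-strand RNA, so its reads cannot be told apart from antisense ones. Nuclear copies of mitochondrial DNA add a further uncertainty to all 13 counts.

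**Figure D2:**
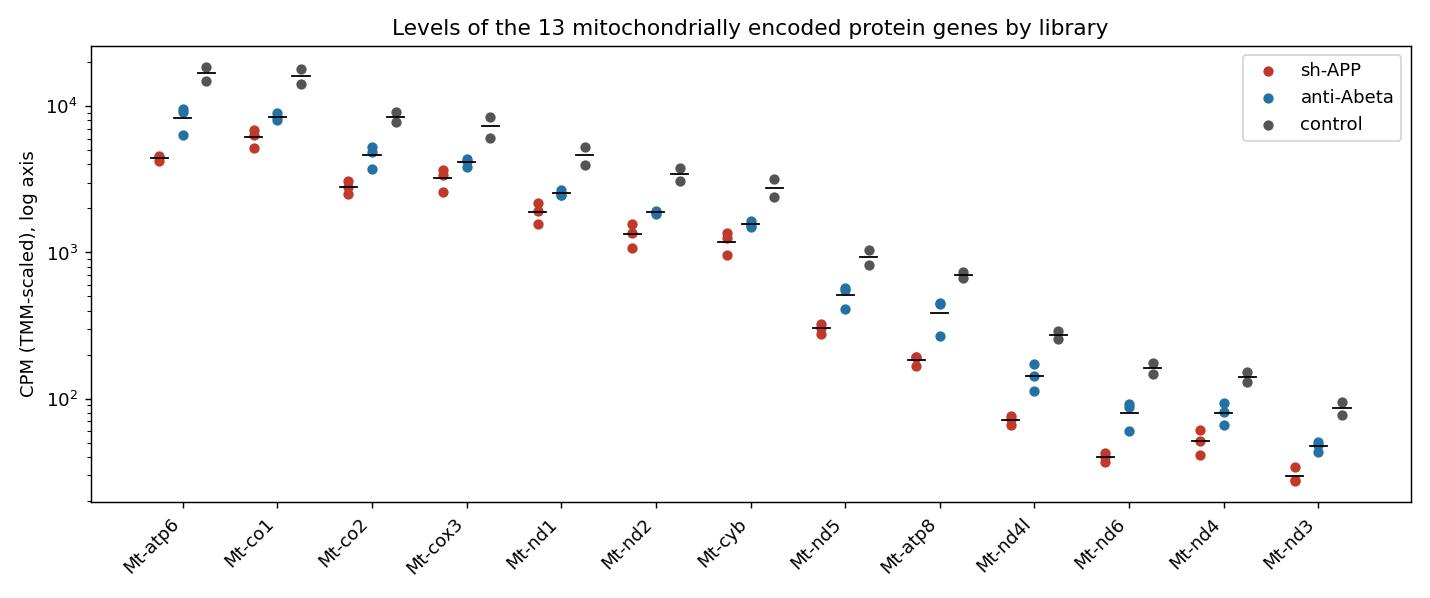
CPM of each Mt- gene on a log10 axis, 1 point per library and a line at each group's mean, sh-APP left of anti-Abeta and control. For every gene the 3 groups are apart, from sh-APP at the bottom to control at the top, and anti-Abeta replicate 3 is low for Mt-atp6 (6381 CPM) and Mt-nd6 (59.6 CPM) but not for Mt-cox3 (4198 CPM).

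Within the Mt- counts, the shares of some genes differed between the sh-APP and control libraries. As a share of all Mt- counts, 5 genes were higher in every sh-APP library than in control (Mt-co1, Mt-cox3, Mt-cyb, Mt-nd1 and Mt-nd2) and 5 were lower (Mt-atp6, Mt-atp8, Mt-nd4l, Mt-nd5 and Mt-nd6), while 3 overlapped. Mt-atp6 made up 20.0%, 18.9% and 22.6% of Mt- counts in sh-APP, 27.0%, 26.9% and 21.8% in anti-Abeta, and 27.1% and 27.4% in control. Mt-cox3 made up 15.1%, 15.3% and 13.8% in sh-APP, 12.4%, 11.3% and 14.3% in anti-Abeta, and 12.2% and 11.2% in control. In anti-Abeta against control 1 gene was lower without overlap (Mt-atp6), none was higher and 12 overlapped. Between the arms, Mt-co1 had a higher and Mt-atp8 a lower share in sh-APP, and the other 11 overlapped. The shares of a library add up to a fixed whole, so they do not move independently, and no test was made on them.

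For some of these genes anti-Abeta replicate 3 lay apart from its own group. Its log2 level minus the mean of the other 2 anti-Abeta libraries was -0.75 for Mt-atp8, -0.59 for Mt-nd6, -0.55 for Mt-atp6 and -0.50 for Mt-nd4l. For Mt-cyb, Mt-cox3 and Mt-nd3 this difference was -0.01, 0.03 and 0.14. The log2 ratio of Mt-nd6 to the other 12 genes was -9.24, -9.14 and -8.87 in sh-APP, -8.66, -8.52 and -8.94 in anti-Abeta, and -8.62 and -8.53 in control. The sh-APP libraries lay below both control libraries (mean difference -0.51), and the anti-Abeta libraries overlapped with each of the other groups.

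**Figure D3:**
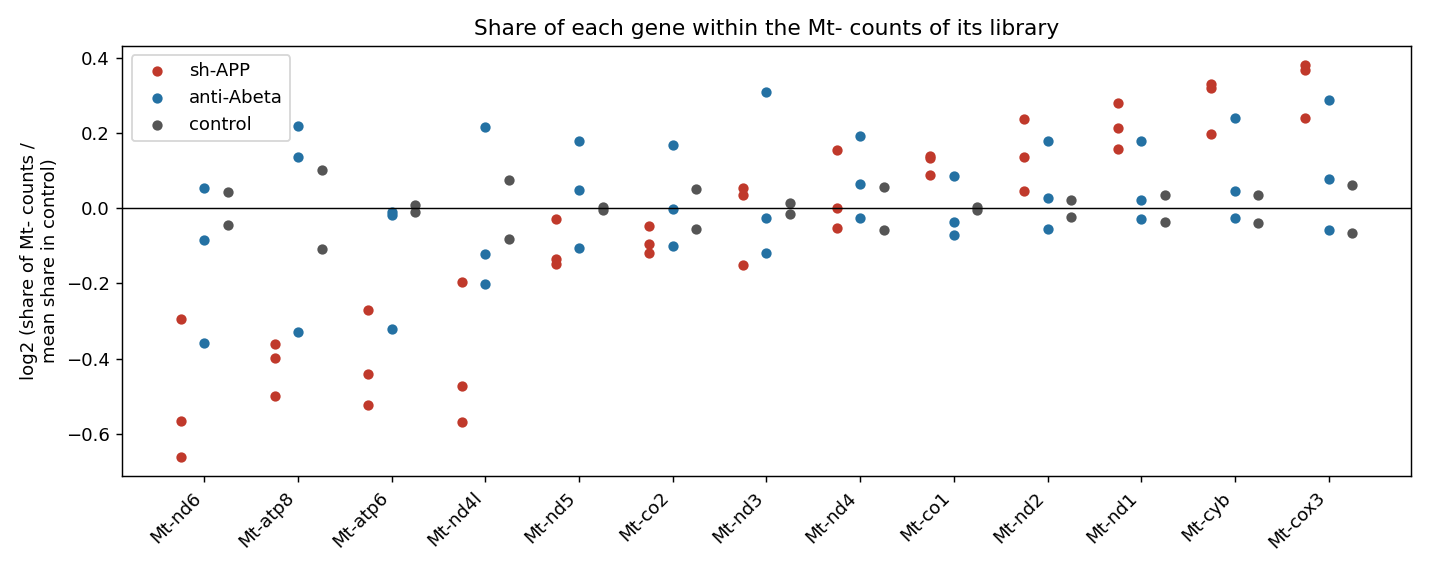
Share of each Mt- gene in all Mt- counts per library, as log2 difference from the control mean. In sh-APP, Mt-atp6, Mt-atp8, Mt-nd4l, Mt-nd5 and Mt-nd6 lie below both control libraries and 5 genes above them, and anti-Abeta replicate 3 lies apart from the other anti-Abeta libraries for Mt-atp6 (21.8% against 27.0% and 26.9%).

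Of the 81 nuclear members tested, 26 were higher and 21 lower in sh-APP than in control (58.0% called, against 53.7% of all genes), with a median log2 fold change of 0.04. In anti-Abeta against control 17 were higher and 13 lower (37.0%, against 29.2%; median 0.03), and in sh-APP against anti-Abeta 12 were higher and 6 lower (22.2%, against 26.1%; median 0.04). These shares and medians were near those of all tested genes, whose medians were 0.03, 0.03 and -0.01. In sh-APP against control the nuclear changes ran from -1.39 to 0.83, and 2 nuclear members, Mrpl32 (-1.39) and Tfb2m (-1.38), lay within the range of the Mt- genes (-2.02 to -1.18).

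**Figure D4:**
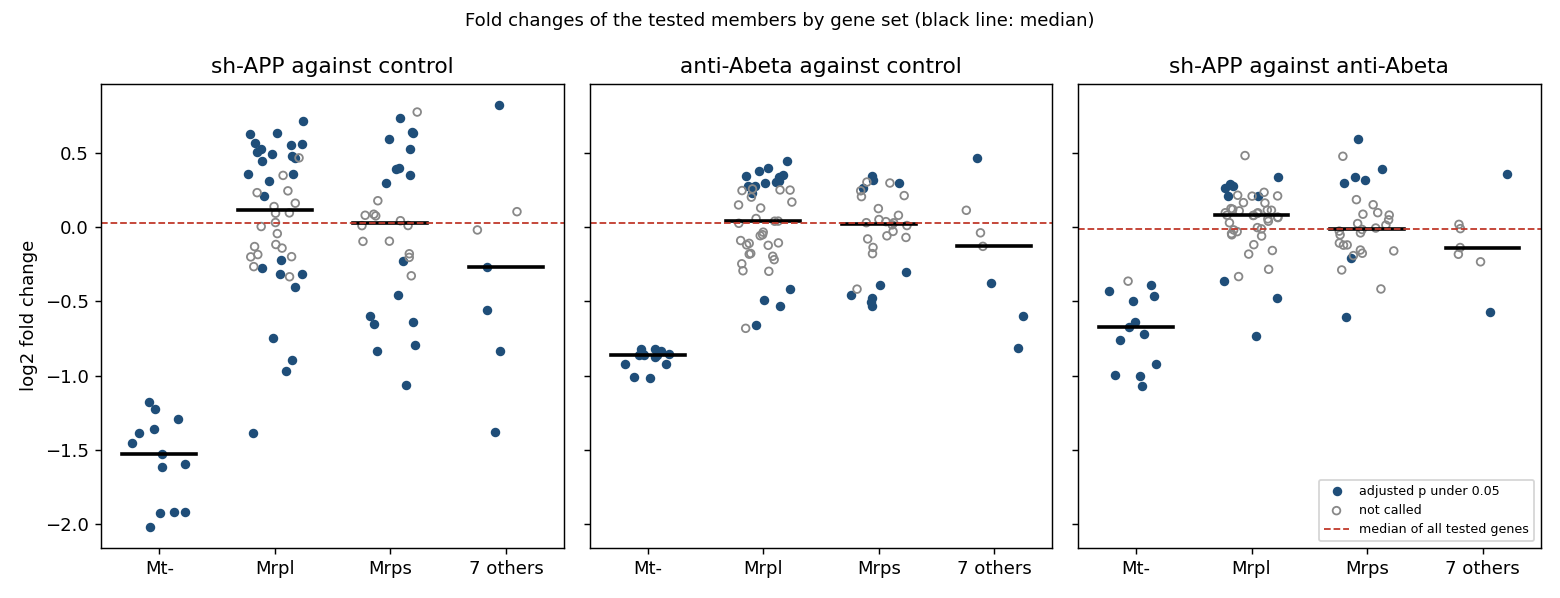
Log2 fold change of each tested member in the 3 comparisons, for the Mt- genes, the Mrpl genes, the Mrps genes and the 7 other nuclear genes (filled points called, black lines medians, dashed line the median of all tested genes). All Mt- points lie below 0 (medians -1.53, -0.86 and -0.67), while the ribosomal genes spread to both sides of 0 (medians 0.08, 0.03 and 0.06).

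The ribosomal genes moved in both directions, and Mrpl1, Mrpl36 and Mrps21l were barely detected, with 146, 163 and 230 counts over the 8 libraries. Of 74 tested, 25 were higher and 17 lower in sh-APP than in control, 16 were higher and 10 lower in anti-Abeta than in control, and 11 were higher and 5 lower in sh-APP than in anti-Abeta. Over all tested genes 25.8%, 12.7% and 10.1% were called higher in these 3 comparisons, and 27.9%, 16.6% and 16.0% were called lower. Large-subunit genes counted 16 higher and 9 lower of 44 in sh-APP (median 0.12) and small-subunit genes 9 higher and 8 lower of 30 (median 0.03). The split depended on scaling: with library totals in place of scaling factors, which raises the median log2 fold change of all genes by 0.20 in sh-APP and 0.15 in anti-Abeta, the counts were 37 higher and 11 lower in sh-APP and 26 higher and 5 lower in anti-Abeta. Without control replicate 1, which leaves 1 control library, the ribosomal calls in anti-Abeta against control were lost, while calls there fell over all tested genes. In sh-APP against control, ribosomal genes were still called in both directions.

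Their summed level was 3976, 4183 and 3860.4 CPM in sh-APP, 3921, 3802 and 3992 CPM in anti-Abeta, and 4049.8 and 3928 CPM in control. These groups overlapped. As an unscaled share of all counts the ribosomal genes held 0.404% to 0.436% in sh-APP, 0.375% to 0.410% in anti-Abeta and 0.363% to 0.365% in control, where both arms lay above control, so the direction of the sum rests on the scaling. The log2 ratio of Mrpl to Mrps sums, which needs no scaling, was 0.71 ± 0.02 in sh-APP, 0.67 ± 0.01 in anti-Abeta (SD, n = 3 each) and 0.59 ± 0.02 in control (SD, n = 2), with both arms above control and overlapping each other.

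Among the lower ribosomal genes, Mrpl32 alone had a change in sh-APP within the range of the Mt- genes, and in anti-Abeta it lay outside that range. Mrpl32, a large-subunit protein that is cut by a mitochondrial protease before assembly, had 21.9, 23.5 and 27.1 CPM in sh-APP, 46.4, 46.5 and 27.7 CPM in anti-Abeta, and 67.0 and 59.8 CPM in control. Anti-Abeta replicate 3 again stood with the sh-APP libraries. It changed by -1.39 ± 0.18 in sh-APP (adjusted p 5.74e-05) and -0.66 ± 0.18 in anti-Abeta (adjusted p 0.0198), and by -0.73 ± 0.17 between the arms. Its anti-Abeta call was lost without either control library (highest adjusted p 0.159). Mrpl50, another large-subunit protein, had 51.5, 63.2 and 52.3 CPM in sh-APP, 69.3, 84.9 and 78.5 CPM in anti-Abeta, and 108 and 109 CPM in control, a change of -0.97 ± 0.11 in sh-APP and -0.49 ± 0.11 in anti-Abeta. Mrpl51 (-0.89 ± 0.09), Mrps14 (-0.83 ± 0.16) and Mrps30 (-0.80 ± 0.12) were also lower in sh-APP. Mrps36 had 32.9, 44.8 and 40.8 CPM in sh-APP, 60.9, 70.6 and 49.3 CPM in anti-Abeta, and 83.0 and 82.1 CPM in control (-1.06 ± 0.14 in sh-APP). Despite its name, Mrps36 is known as a subunit of the alpha-ketoglutarate dehydrogenase complex of the citric acid cycle.

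Higher ribosomal genes changed less. Mrps34, which is needed for a stable small subunit, had 56.2, 54.1 and 49.0 CPM in sh-APP, 39.0, 36.6 and 45.9 CPM in anti-Abeta, and 31.4 and 32.4 CPM in control. The groups did not overlap, and the changes were 0.74 ± 0.11 in sh-APP and 0.35 ± 0.11 in anti-Abeta. The anti-Abeta change of Mrps34 ran from 0.25 to 0.40 when 1 library was left out. Its call was lost without anti-Abeta replicate 1 or 3. It was also lost in edgeR fits of only the 2 groups compared (adjusted p 0.0547) and with the replicate block (adjusted p 0.0718). Mrpl4, a large-subunit protein, had 98.4, 98.8 and 93.3 CPM in sh-APP, 76.7, 76.7 and 84.1 CPM in anti-Abeta, and 61.1 and 64.4 CPM in control (0.63 ± 0.08 and 0.34 ± 0.08). Mrpl2 (0.72), Mrps11 (0.64), Mrps24 (0.64) and Mrpl38 (0.63) were the other higher genes that the naming rule took in sh-APP. In anti-Abeta it also took Mrpl43 (0.45), Mrpl23 (0.35) and Mrpl34 (0.35) as higher, and Mrps18c (-0.53) and Mrps33 (-0.48) as lower, none of which was called without control replicate 1. Without that library Mrps18c and Mrps33 also lost their calls in sh-APP (adjusted p 0.0914 and 0.0922).

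Mrps6, a small-subunit protein, separated the arms. It had 104, 91.5 and 100.1 CPM in sh-APP, 65.7, 60.4 and 69.0 CPM in anti-Abeta, and 67.3 and 69.0 CPM in control. The sh-APP libraries stood above all others, with a log2 fold change of 0.53 ± 0.09 against control (adjusted p 0.000242) and 0.60 ± 0.08 against anti-Abeta (adjusted p 0.000694), whereas anti-Abeta against control gave -0.07 ± 0.08 (adjusted p 0.581). In RefSeq (GRCr8) Mrps6 overlaps Slc5a3, so its counts may hold reads of that gene. Such overlaps were found for 23 of the 81 nuclear members that matched RefSeq, among them Mrpl43 with Twnk, Slirp with Alkbh1 and Snw1, and Mrps12. The sources used here do not say how the counting treated them.

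Of the 7 nuclear genes of transcription, replication and RNA stability, 4 were lower and 1 higher in sh-APP than in control (71.4% called, against 53.7% of all genes), and 3 lower and 1 higher in anti-Abeta (57.1%, against 29.2%). Tfb2m, which opens the promoter for the polymerase, had 13.9, 16.3 and 18.4 CPM in sh-APP, 20.4, 26.3 and 25.3 CPM in anti-Abeta, and 42.0 and 42.5 CPM in control. Its groups did not overlap, and it changed by -1.38 ± 0.14 in sh-APP (adjusted p 9.12e-06), -0.82 ± 0.14 in anti-Abeta (adjusted p 0.00279) and -0.57 ± 0.13 between the arms (adjusted p 0.00677). Tfam had 79.3, 83.6 and 80.3 CPM in sh-APP, 88.3, 97.5 and 90.2 CPM in anti-Abeta, and 122 and 117 CPM in control. It changed by -0.56 ± 0.07 in sh-APP (adjusted p 5.74e-05) and -0.37 ± 0.07 in anti-Abeta (adjusted p 0.00478), and the difference between the arms did not pass (-0.18 ± 0.07, adjusted p 0.0634).

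Polrmt went the other way. It had 51.2, 41.4 and 38.9 CPM in sh-APP, 35.2, 35.3 and 32.1 CPM in anti-Abeta, and 26.6 and 22.8 CPM in control. Every sh-APP library was above every anti-Abeta library, and these were above both controls, with changes of 0.83 ± 0.13 in sh-APP (adjusted p 0.000183), 0.47 ± 0.13 in anti-Abeta (adjusted p 0.0182) and 0.36 ± 0.11 between the arms (adjusted p 0.0340). The anti-Abeta calls are less firm: without control replicate 1, Tfam had an adjusted p of 0.0650, and Polrmt lost its call without either control library (highest adjusted p 0.151). The Polrmt call between the arms was lost without sh-APP replicate 1 or without anti-Abeta replicate 1 or 3 (highest adjusted p 0.158).

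Slirp had 16.4, 23.2 and 14.9 CPM in sh-APP, 19.5, 22.2 and 22.5 CPM in anti-Abeta, and 33.0 and 31.9 CPM in control. Both arms lay below control and overlapped each other, with -0.83 ± 0.16 in sh-APP (adjusted p 0.000857) and -0.60 ± 0.16 in anti-Abeta (adjusted p 0.0174). The anti-Abeta call was lost without anti-Abeta replicate 1 or either control library. Its partner Lrpprc had 97.7, 113 and 112 CPM in sh-APP, 114, 113 and 128 CPM in anti-Abeta, and 138 and 121 CPM in control. It passed in sh-APP (-0.27 ± 0.09, adjusted p 0.0286) but not with library totals (-0.06, adjusted p 0.603), nor without sh-APP replicate 1 or control replicate 1. Twnk averaged 31.9 ± 3.32 CPM in sh-APP, 32.1 ± 2.75 CPM in anti-Abeta (SD, n = 3 each) and 29.7 ± 4.22 CPM in control (SD, n = 2). Ppargc1a averaged 12.6 ± 2.41 CPM in sh-APP, 12.5 ± 0.46 CPM in anti-Abeta and 12.8 ± 1.75 CPM in control. Neither passed in any comparison, with log2 fold changes of 0.10 ± 0.13 and -0.02 ± 0.17 in sh-APP and 0.11 ± 0.13 and -0.04 ± 0.17 in anti-Abeta.

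**Figure D5:**
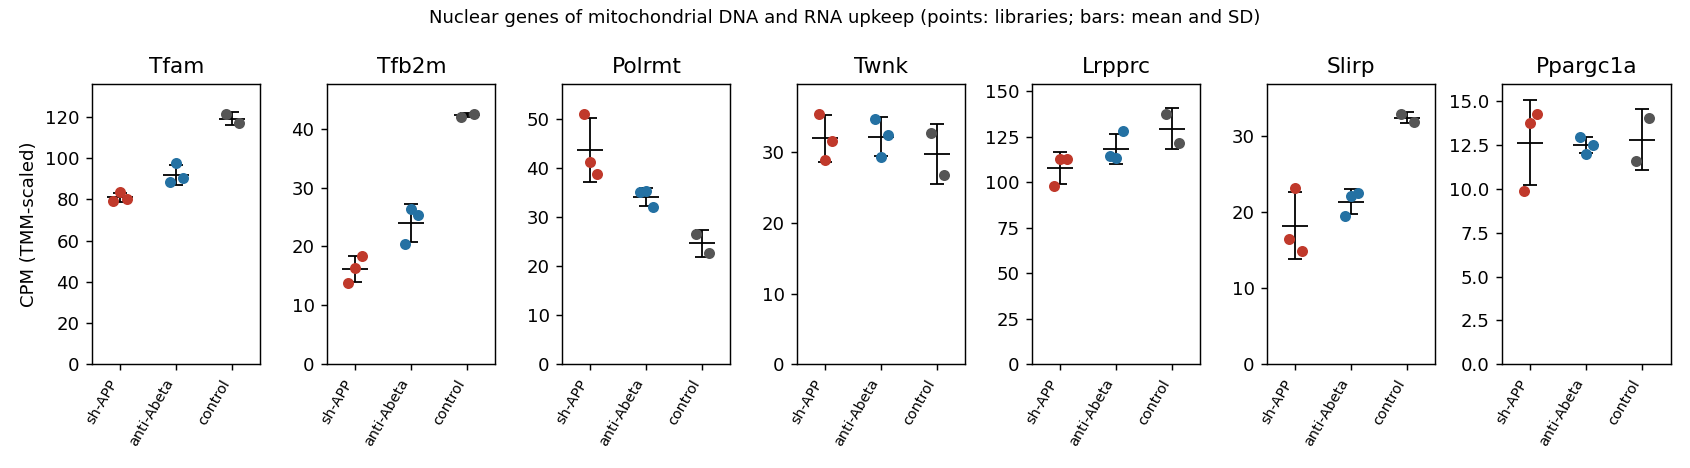
CPM of the 7 nuclear genes, points for libraries with mean and SD, sh-APP left of anti-Abeta and control. Tfb2m (13.9 to 18.4 CPM in sh-APP, 42.0 and 42.5 CPM in control) and Tfam are lower in both arms than in control, Polrmt (38.9 to 51.2 CPM in sh-APP, 22.8 and 26.6 CPM in control) is higher, and Twnk and Ppargc1a overlap between groups.

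Other genes of mitochondrial gene expression, taken as lists by function, were also called in both directions. Their counts stand beside the share called over all tested genes, 53.7% in sh-APP (25.8% higher and 27.9% lower) and 29.2% in anti-Abeta (12.7% higher and 16.6% lower). Of 22 genes of mitochondrial RNA processing and stability, 7 were higher and 11 lower in sh-APP (81.8% called, median -0.19), and 4 higher and 9 lower in anti-Abeta (59.1%, median -0.20). Pnpt1, the polynucleotide phosphorylase of the organelle, averaged 67.6 ± 6.07 CPM in sh-APP, 103 ± 11.2 CPM in anti-Abeta (SD, n = 3 each) and 175 ± 6.73 CPM in control (SD, n = 2), with changes of -1.37 ± 0.10 in sh-APP and -0.77 ± 0.10 in anti-Abeta. Trmt10c, a part of the enzyme that cuts the 5' ends of mitochondrial tRNAs, changed by -0.96 ± 0.11 in sh-APP, and Fastkd2, an RNA-binding protein of the mitochondrial matrix, by -0.97 ± 0.10.

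Of 17 other factors of mitochondrial DNA replication and transcription, 6 were higher and 7 lower in sh-APP (76.5% called, against 53.7% of all genes, median -0.06), and 1 was higher and 2 lower in anti-Abeta (17.6%, against 29.2%). Ssbp1, which coats single-stranded mitochondrial DNA, changed by -1.0 ± 0.13 in sh-APP and -0.74 ± 0.13 in anti-Abeta. Mterf1, a transcription termination factor, changed by -1.17 ± 0.12 in sh-APP. Of 17 translation factors 4 were higher and 7 lower in sh-APP (64.7%), with Mtif2, the initiation factor, at -0.93 ± 0.12 and Tufm, the elongation factor Tu, at 0.40 ± 0.07. Of 21 ribosome assembly factors 7 were higher and 3 lower (47.6%, below the share of all genes, median 0.23), with Mterf3 at -1.14 ± 0.10, Gtpbp10 at -1.08 ± 0.12 and Mpv17l2 at 0.80 ± 0.10. Of 4 ribosomal proteins that go by other names, 3 were called (75%), of which Ptcd3 (-0.86 ± 0.09) and Chchd1 (-0.46 ± 0.18) were lower and Gadd45gip1 (0.63 ± 0.13) higher. Of 16 mitochondrial aminoacyl-tRNA synthetases, 8 were higher and 4 lower (75%, median 0.21), with Tars2 at 0.57 ± 0.07.

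Among 13 regulators of mitochondrial biogenesis, 3 were higher and 5 lower in sh-APP (61.5% called, against 53.7% of all genes). Gabpa, the DNA-binding subunit of the ETS factor GABP, averaged 53.9 ± 4.95 CPM in sh-APP, 72.7 ± 10.8 CPM in anti-Abeta (SD, n = 3 each) and 108 ± 9.95 CPM in control (SD, n = 2), with changes of -1.01 ± 0.12 in sh-APP and -0.58 ± 0.12 in anti-Abeta. Sirt1, a deacetylase that acts on PGC-1alpha, changed by -1.51 ± 0.21 in sh-APP, and Prkaa1, the catalytic alpha subunit of AMP kinase, by -1.21 ± 0.17. Of 14 genes of import and outer-membrane content, 3 were higher and 8 lower (78.6%). Tomm20, an import receptor, changed by -1.09 ± 0.14 and Vdac3, a porin, by -0.74 ± 0.08, while Tomm40, the import channel, changed by 0.68 ± 0.09. Of 11 chaperones and proteases, 5 were higher and 4 lower (81.8%), with Hspd1, the matrix chaperonin, at -0.92 ± 0.08 and Clpp, a matrix protease, at 0.61 ± 0.08.

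The nuclear partners of the Mt- products did not move as they did. Of 78 nuclear subunits of the respiratory chain and ATP synthase, 29 were higher and 25 lower in sh-APP (69.2% called, against 53.7% of all genes, median 0.09). In anti-Abeta 18 were higher and 22 lower (51.3%, against 29.2%, median 0.01), and in sh-APP against anti-Abeta 15 were higher and 6 lower (26.9%, against 26.1%, median 0.06). Atp5d (0.81 ± 0.09), Ndufb7 (0.74 ± 0.09) and Ndufs8 (0.63 ± 0.08) were the 3 with the smallest p in sh-APP. In anti-Abeta they were Ndufs1 (-0.35 ± 0.07), Ndufb6 (-0.46 ± 0.09) and Uqcrb (-0.70 ± 0.14). Of 73 cytosolic ribosomal protein genes, 27 were higher and 15 lower in sh-APP (57.5%, near the share of all genes, median 0.13).

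Markers of other cells moved with the groups in part. Of 8 neuronal markers 7 were tested, and the list summed to 144 to 155 CPM in sh-APP, 225 to 289 CPM in anti-Abeta and 330.4 to 357 CPM in control, carried by Map2, Snap25 and Elavl4, while Slc17a6 was at 0. The list was mixed in sh-APP against control: those 3 genes were called lower, and the weakly detected Tubb3 (4.12 to 6.18 CPM in sh-APP, 2.24 and 2.84 CPM in control) and Rbfox3 (2.31 to 3.02 CPM in sh-APP, 1.32 and 1.83 CPM in control) were called higher. That is 71.4% of the 7 tested, against 53.7% of all genes (25.8% higher and 27.9% lower). Of 7 melanocyte and melanoma markers 3 were tested, and the list summed to 58.8 to 68.9 CPM in sh-APP, 83.4 to 119 CPM in anti-Abeta and 150.5 to 165 CPM in control, carried by Slc24a5 and Mitf. The defining melanocyte genes Mlana, Tyr, Tyrp1 and Dct had 2, 21, 29 and 13 counts in all 8 libraries together. These are reads aligned to the rat genome, so they do not measure melanoma RNA if those cells are of another species. Both sums are in the same order as the Mt- share, and their part in the result was not tested. The summed microglial markers were 10.5 to 13 CPM in sh-APP, 11.8 to 21.8 CPM in anti-Abeta and 11.7 to 15.4 CPM in control. Almost all of this was Cd68, and every other marker of the list was under 1 CPM. Of the 3 tested, 1 was called higher and 0 lower in sh-APP against control (33.3%, against 53.7% of all genes). Oligodendrocyte-lineage markers summed to 2737 to 2892 CPM in sh-APP, 2686 to 3015 CPM in anti-Abeta and 2307 to 2387 CPM in control, most of it Olig1 and Olig2. In sh-APP against control Olig1 was called higher, and Pdgfra, at 16.5 to 17.3 CPM in sh-APP, 23.6 to 40 CPM in anti-Abeta and 32.5 and 34.9 CPM in control, was called lower. These were the only calls among the 8 markers of that list (25%, against 53.7% of all genes). Pericyte and fibroblast markers summed to 30.4 to 33.1 CPM in sh-APP, 21.0 to 26.3 CPM in anti-Abeta and 18.9 to 23.1 CPM in control, and endothelial markers to under 1 CPM in each library.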

How the data were processed

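The authors deposited a table of raw counts per gene symbol, with whole numbers whose totals differ between libraries. Per the submitters' processing notes, the rat build was rn6 and the tools were HTSeq 0.11.1, STAR 2.6.0a, Trimmomatic 0.36, FastQC 0.11.7, DESeq2 1.24.0 and SAMtools 1.9. Their settings, and whether libraries were stranded, were not stated. Of 28546 entries 8853 held no count.

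Groups came from the labels. Counts were filtered with filterByExpr (minimum count 10), scaled by the trimmed mean of M values and fitted for all 8 libraries with edgeR 4.0.16 in R 4.3.3 (robust quasi-likelihood, 5 residual degrees of freedom), with Benjamini-Hochberg adjustment over 14445 genes in each of 3 comparisons. The procedure was tested on simulated data. Shares and sums over members were described without tests. Ribosomal genes were named by a rule: up to 6 per direction and comparison with the largest change among those called, without overlap and with at least 5 CPM in the higher group, and up to 3 called genes per list by p. Members and lists were chosen with earlier results of these data known. Promoter letters and gene overlaps came from RefSeq (GRCr8), which matched 81 of the 82 nuclear members and none of the Mt- genes. No library was a copy of another: counts of replicates differed by more than sampling noise. Alternatives were DESeq2 1.42.0, other scalings and filters, only the compared groups, a replicate block, and each library left out.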

Additional observations from a re-analysis of the deposited data

How the results depend on the processing

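All 13 Mt- genes stayed lower in sh-APP than in control under every alternative run, with log2 fold changes of -1.81 to -0.97 under library totals. The calls in anti-Abeta against control rest on control replicate 1 more than on any other library.

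Library totals in place of scaling factors gave 11 ribosomal genes lower in sh-APP, 26 higher and 5 lower in anti-Abeta, and 3590 higher and 1417 lower of all genes in anti-Abeta. The log2 fold change then turned to 0.18 for Ppargc1a in sh-APP, to 0.11 for Ppargc1a, 0.023 for Lrpprc and 0.083 for Mrps6 in anti-Abeta, and to 0.044 for Twnk between the arms, none of them called. A fit of the compared groups alone gave 9 ribosomal genes higher in anti-Abeta and 0.0055 for Twnk between the arms, and DESeq2 gave 8 ribosomal genes lower in sh-APP against anti-Abeta. With the replicate block, 6 ribosomal genes were higher and 6 lower in anti-Abeta, and all 13 Mt- genes were lower in each comparison. Without a filter on low counts 12 Mt- genes passed in anti-Abeta (Mt-atp8 had an adjusted p of 0.062) and 10 in sh-APP against anti-Abeta, where library totals gave 11. Whether the replicate numbers pair the libraries cannot be told from groups this small. Deviations from the group means of same-numbered sh-APP and anti-Abeta libraries correlated across genes at 0.105, 0.098 and -0.0056. Sh-APP replicate 1 with anti-Abeta replicate 2 gave -0.101, and sh-APP replicate 2 with anti-Abeta replicate 1 gave -0.108. The remaining pairs of these groups gave -0.0093 to 0.0150, and sh-APP replicate 3 did not correlate best with its own number. The cause of these shifts was not tested.

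Leaving out 1 library at a time gave 13 Mt- genes lower in sh-APP, 9 to 13 in anti-Abeta and 10 to 13 between the arms. Ribosomal genes numbered 22 to 28 higher and 10 to 17 lower in sh-APP, 0 to 18 higher and 0 to 11 lower in anti-Abeta, and 3 to 12 higher and 4 to 7 lower between the arms. Of the 7 other nuclear genes 4 to 5, 1 to 4 and 1 to 3 were called in these comparisons. All genes numbered 54 to 1976 higher and 385 to 2799 lower in anti-Abeta, and 744 to 1477 higher and 1489 to 2219 lower between the arms. The lowest anti-Abeta counts came without control replicate 1, and the lowest counts between the arms without sh-APP replicate 1. Values that changed sign were uncalled: Twnk ran from -0.017 to 0.26 in sh-APP, -0.026 to 0.26 in anti-Abeta and -0.090 to 0.060 between the arms, Ppargc1a from -0.14 to 0.14, -0.18 to 0.11 and -0.077 to 0.17, and Mrps18c between the arms from -0.27 to 0.014.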
